A study of Chelon labrosus with 24 samples.

Results

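The aryl hydrocarbon receptors AHR1 and AHR2, the aryl hydrocarbon receptor repressor AHRR and the CYP1 genes CYP1A1, Cyp1, CYP1_C and CYP1Bb were measured in the liver of caged fish. Members were the probes whose gene name, ignoring case and punctuation, equalled 1 of these 7 names, which gave 7 of 160 genes and 25 of 638 probes on the array. Immature thicklip grey mullets (Chelon labrosus), a coastal fish, were held at an inner and an outer place in the harbour of Pasaia, and liver RNA was hybridised to 24 single-colour arrays. The 4 groups of 6 are called inner first and outer first (the first sampling), and inner second and outer second (the second sampling). By the sample labels the samplings were on day 5 and day 21, but exposure lasted 3 and 15 days by the series text. No strain, treatment or dose is labelled, and no fish from outside the harbour was analysed here, so every comparison is between harbour sites or between samplings. The samples are numbered and are called fish below, but nothing says outright that they are separate animals, so p-values reflect only how these samples scatter, which may be partly technical. Each site is known only through its caged fish, and a cage cannot be told apart from its site.

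The aryl hydrocarbon receptor is a transcription factor of the bHLH-PAS family that binds planar aromatic pollutants, among them dioxins, coplanar polychlorinated biphenyls and many polycyclic aromatic hydrocarbons. After binding it leaves a cytosolic complex with HSP90, pairs with ARNT in the nucleus and raises transcription of its target genes, of which CYP1A in fish liver is the classic marker of exposure to such compounds. AHRR is itself a target gene and competes with the receptor for ARNT. Fish carry AHR1 and AHR2 types, and in zebrafish AHR2 mediates most of the toxicity of dioxin. CYP1 enzymes are monooxygenases that oxidise many of the same aromatic compounds.

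The probes are 55-base sequences taken from the deposited scanner files, and no genome positions come with them. The 4 CYP1A1 probes are shown because the main result rests on them. They come from separate stretches, since the longest run of bases that any pair shares is 7.
CYP1A1 probe 1: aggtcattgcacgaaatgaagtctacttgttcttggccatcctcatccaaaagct
CYP1A1 probe 2: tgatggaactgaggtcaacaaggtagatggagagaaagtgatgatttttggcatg
CYP1A1 probe 3: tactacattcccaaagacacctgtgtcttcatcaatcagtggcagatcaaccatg
CYP1A1 probe 4: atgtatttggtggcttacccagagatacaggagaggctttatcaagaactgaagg

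The 4 AHR2 probes are shown because by their values they fell into 2 pairs, whose group means were ordered differently. Capitals mark the 32 bases that probes 1 and 2 have in common. Probes 3 and 4 share runs of no more than 6 bases with these or with each other.
AHR2 probe 1: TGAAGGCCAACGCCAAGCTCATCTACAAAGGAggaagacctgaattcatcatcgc
AHR2 probe 2: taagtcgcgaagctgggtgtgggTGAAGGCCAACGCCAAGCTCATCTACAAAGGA
AHR2 probe 3: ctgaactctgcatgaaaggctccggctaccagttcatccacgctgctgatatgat
AHR2 probe 4: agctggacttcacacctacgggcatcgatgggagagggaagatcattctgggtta

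The 4 AHR1 probes lie on the same stretch, each moved by a single base, and capitals mark the 52 bases held by all 4. They are shown because probes that differ so little gave very different detection.
AHR1 probe 1: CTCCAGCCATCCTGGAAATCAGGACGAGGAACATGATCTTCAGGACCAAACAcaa
AHR1 probe 2: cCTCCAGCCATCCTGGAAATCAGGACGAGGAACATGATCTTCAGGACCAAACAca
AHR1 probe 3: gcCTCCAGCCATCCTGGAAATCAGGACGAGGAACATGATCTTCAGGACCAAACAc
AHR1 probe 4: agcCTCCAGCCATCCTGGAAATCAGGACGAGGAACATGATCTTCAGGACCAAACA

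AHRR probe 4, the only AHRR probe ever detected, and its neighbour probe 3 share the 25 bases in capitals here. The single Cyp1 probe is in capitals throughout, because CYP1_C probe 1 has the identical sequence. These probes have separate spots, 10 and 4 an array, but their sequence cannot tell the names apart.
AHRR probe 4: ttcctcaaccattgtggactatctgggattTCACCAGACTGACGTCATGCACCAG
Cyp1 probe 1: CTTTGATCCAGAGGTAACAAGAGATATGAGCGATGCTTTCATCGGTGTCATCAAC

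Expression is given as a level, the log2 of the background-corrected spot signal averaged over the spots of a probe, minus the 75th percentile of the same array. A level of 0 is thus the signal that 25% of probes exceed. Levels of different probes are not amounts of RNA relative to each other, and only the same probe is compared between groups. A probe counted as well above background on an array where at least 50% of its used spots carried the scanner software's flag for it. It was tested where that held on at least 6 of the 24 arrays, as it did for 476 of the 638 probes. The arrays had 371 to 484 probes well above background each, and the 75th percentile of log2 signal ran from 10.7 to 12.1. The lowest count, 371, was that of outer second fish 4. As a check of the tissue, 8 of 10 liver markers (ApoE, transferrin, haptoglobin, hepcidin, C3, a-2_macroglobulin, CYP7 and a vitellogenin C) were well above background on all 24 arrays. Trypsin, an enzyme of exocrine pancreas, was well above background on all 24 as well. In RNA of whole liver, fewer cells of a type and less RNA per cell cannot be told apart.

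Detection divided the members. All 4 CYP1A1 probes were well above background on all 24 arrays, and AHR2 probes 3 and 4 were too. AHR2 probes 1 and 2 fell short only in outer second fish 4 and reached 23 arrays each. AHR1 probes 3 and 4 were detected on 21 and 20 arrays, and the arrays without them belonged to the second sampling. AHR1 probes 1 and 2 were detected on 2 arrays each, although probe 2 shares 54 of its 55 bases with probe 3. The AHR1 signal in this liver therefore depends on which of these tiled probes is read.

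AHRR was detected through probe 4 alone, on 6 arrays, of which 1 and 2 were of inner fish (first and second sampling) and 2 and 1 of outer fish. AHRR probes 1, 2 and 3, and every probe of Cyp1 and CYP1_C, were on no array well above background. CYP1Bb, with tiled probes like those of AHR1, was detected among the inner second fish only, in fish 2 with probes 1, 2 and 3 and in fish 4 with probe 2. These are 4 of the 216 measurements of the 3 untested members, too few to compare groups. The same 2 fish, 2 and 4, were the inner second fish in which AHRR probe 4 was well above background, with signals of 25.1 and 19.8 units, while CYP1Bb probe 2 read 11.6 and 9.0 units. Of these, fish 4 also had the highest CYP1A1 level among all 24. These coincidences were noticed after the values were seen. The detection limit also differed between arrays. CYP1Bb probe 3 read 10.1 units in outer second fish 4, not well above background, and 9.81 units in inner second fish 2, where it was. The lowest signal well above background was 23.6 units on the array of that outer fish and 5.06 units on that of the inner fish. In all, 11 probes of 4 members entered the tests: 4 of CYP1A1, 4 of AHR2, 2 of AHR1 and 1 of AHRR.

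**Figure D1:**
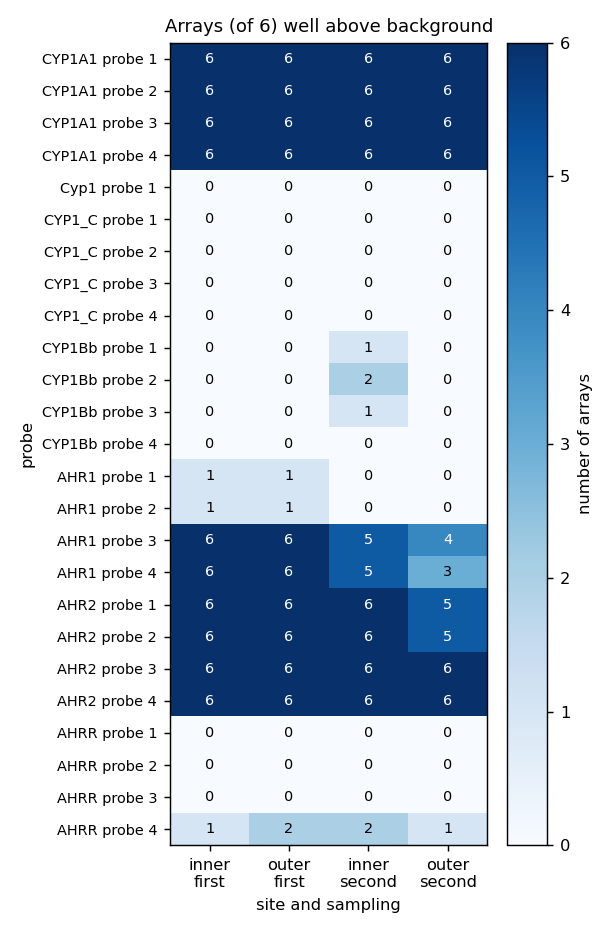
Number of arrays, out of 6 in each site and sampling group, on which each of the 25 probes was well above background. The 4 CYP1A1 probes are at 6 of 6 throughout, while Cyp1 and CYP1_C are at 0 throughout and CYP1Bb has counts of 1, 2 and 1 in the inner second group only.

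CYP1A1 rose in the inner harbour between the samplings. It is represented by probe 1, its brightest. The 6 inner first fish ranged from 0.52 over a median of 0.87 to 1.57. The 6 inner second fish ranged from 1.30 over 1.95 to 2.64. 5 of the 6 later fish stood above every earlier fish, and the groups overlapped only through inner second fish 7, at 1.30, and inner first fish 8, at 1.57. The group means were 0.92 ± 0.40 and 1.95 ± 0.44 (SD, n = 6 each), a difference of 1.03 ± 0.28 (SE) on the log2 scale, or 2.04-fold with a 95% interval of 1.37 to 3.06 (limma's moderated test, adjusted p = 0.00887). The other probes gave differences up to 1.21, and all 4 passed with adjusted p between 0.00687 and 0.0144. On probe 4 the lowest later fish, at -0.48, stood just above the highest earlier fish, at -0.57, so that those groups did not overlap.

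Of the 11 tested member probes, 7 rose in the inner harbour and none fell, where 25.4% of all tested probes were called and 17.9% of all tested probes were called higher (limma, adjusted p under 0.05 over 476 probes). The 7 were the 4 of CYP1A1, AHR2 probes 1 and 4 and AHRR probe 4. The count was 1 with the 75th percentile over detected probes, 1 with spike-in controls, 2 with the median over detected probes and 4 with normexp. AHRR probe 4 had only just been tested, with the minimum of 6 arrays well above background. Without the 2 of these that were inner second fish, it would not have been tested. The median difference of the member probes was 0.85, beside 0.14 over all tested probes. The 11 probes share transcripts and are not 11 separate measurements of the pathway. On every slide the first sampling lay in 1 row of arrays and the second sampling in the other, so that the effect of the row cannot be told apart from that of the sampling.

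The call of the CYP1A1 rise depended on the scaling. Over 8 ways of scaling the arrays the difference lay between 0.71 and 1.03, and it passed the threshold in 3 of them. It was lost with quantile normalization (0.82, adjusted p = 0.0922), with the 75th percentile over probes detected on all arrays (0.71, adjusted p = 0.187), with spike-in controls (0.96, adjusted p = 0.241), with the deposited log2 values (0.82, adjusted p = 0.0955) and with the median over detected probes (0.81, adjusted p = 0.0595). In the deposited table, and also after quantile normalization, 3 of the 4 CYP1A1 probes still passed. Scaled by spike-in controls, 0 of the 4 passed. The count was 1 of 4 under the median over detected probes and 0 of 4 under their 75th percentile. Measured from the median of all tested probes, the rise was 0.89 in the main scaling, which no scaling by a single number per array can change, and 0.83 with quantile normalization. Within slides, each of which held 2 arrays of every group, the rise was 1.41, 1.29 and 0.39. The summed level of the 10 liver markers ranged from 4.82 to 5.85 in the inner first fish and from 5.53 to 6.00 in the inner second fish on the log2 scale, with 3 of the 8 tested markers higher and 1 lower (limma) and the markers VTG-A and VTG-B on 0 and 1 arrays. The trypsin level ran from -4.34 to 2.85 in the earlier and from -3.46 to 4.78 in the later inner fish. The summed level of 3 immune markers (MHC_II, Mhc2 and an immunoglobulin) ran from -5.61 to -3.97 and from -4.95 to -1.51, and none of the 3 was called. The part of these markers in the CYP1A1 result was not tested.

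**Figure D2:**
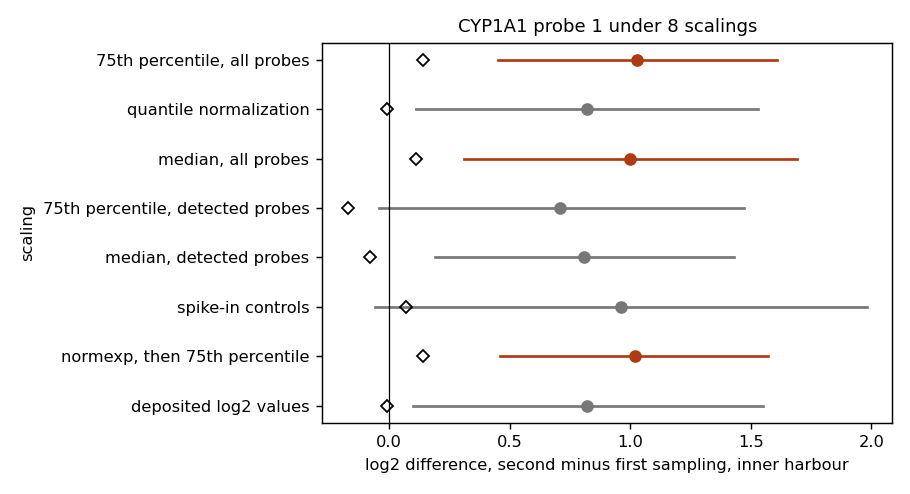
CYP1A1 probe 1, second minus first sampling in the inner harbour (log2), under 8 scalings, with 95% intervals from limma as lines, dark red where the adjusted p was under 0.05, and open diamonds for the median of all tested probes. The points lie between 0.71 and 1.03, and 3 of the 8 passed.

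In the outer harbour no change of CYP1A1 passed the test. On probe 1 the 6 fish ranged from 0.61 over 1.22 to 2.24 at the first sampling and from 1.06 over 1.52 to 2.01 at the second. The later fish lay within the range of the earlier ones. Outer first was the most spread of the 4 groups: fish 2, 3 and 8 read 0.61, 0.82 and 0.63, while fish 1, 4 and 5 read 1.91, 2.24 and 1.63. The means were 1.31 ± 0.71 and 1.52 ± 0.36 (SD, n = 6 each), a difference of 0.21 with a 95% interval of -0.37 to 0.79 (limma, adjusted p = 0.636). The 4 probes gave differences from 0.00 to 0.21. None of the 11 member probes was called in the outer harbour, where 16.6% of all tested probes were (limma; 0 member probes at an unadjusted p under 0.05, 130 of all). Under 4 of the 7 other scalings AHR2 probes 3 and 4 were called there.

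**Figure D3:**
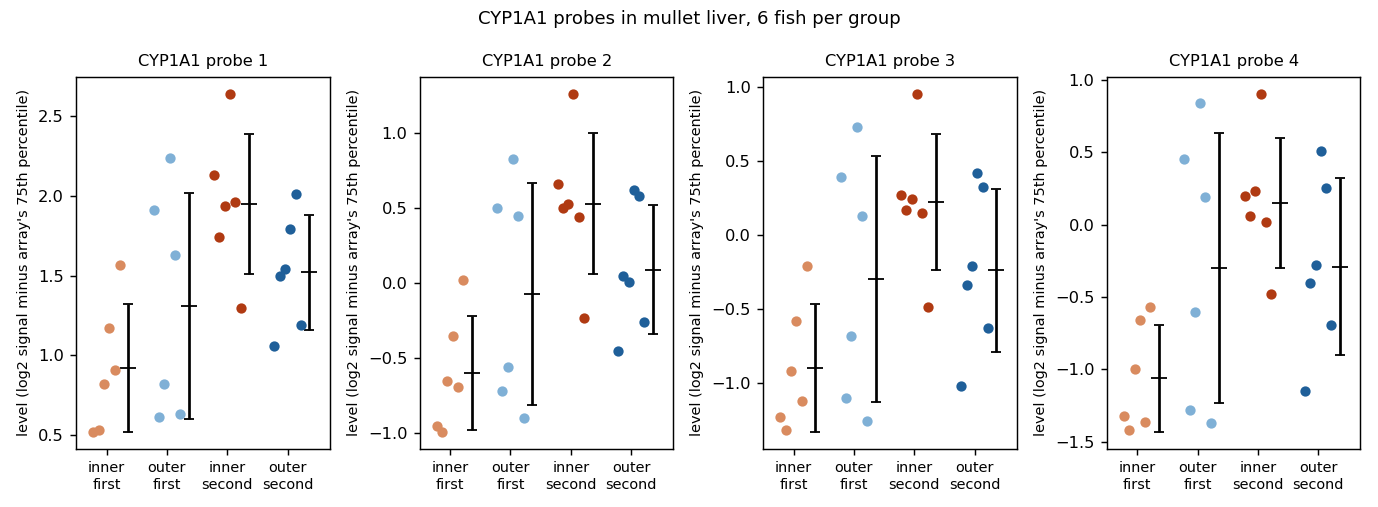
Levels of the 4 CYP1A1 probes (log2 signal minus the array's 75th percentile) in single fish by site and sampling, 6 fish per group, with bars for mean and SD, each panel on its own axis. On probe 4 every inner second fish lies above every inner first fish, and the outer first fish spread widest.

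Whether the CYP1A1 change differed between the sites was not settled by its test. The change of the site difference was 0.82 ± 0.40 (SE) on probe 1, with an interval that just reached 0 and went up to 1.64 (limma, adjusted p = 0.165). The 4 probes lay between 0.82 and 1.21 with adjusted p from 0.0946 to 0.165. Within slides it was 1.39, 1.16 and -0.09 on probe 1. Among the member probes, 1 of 11 was called in this test, AHR2 probe 1, where 12.2% of all tested probes were and 11.1% were called higher (limma). All 11 had a positive estimate, with a median of 0.88 beside 0.27 over all tested probes. The median over all probes moved from -0.29 to 0.46 with the scaling, so that part of any such estimate follows the scaling.

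As a mean over both sites, CYP1A1 was higher at the second sampling by 0.62 ± 0.20 (SE), or 1.54-fold with an interval of 1.16 to 2.04 (limma, adjusted p = 0.0212). Probe 2 passed as well, and probes 3 and 4 had adjusted p of 0.0643 and 0.0724. 5 of the 11 member probes were called, all higher, where 26.5% of all tested probes were called and 15.3% were called higher (limma). Besides CYP1A1 probes 1 and 2 these were AHR2 probes 3 and 4 and AHRR probe 4. The count was 1 with the 75th percentile over detected probes, 1 with spike-in controls and 2 with normexp. In the first and second of these scalings none of the 5 rises passed, and the 1 call was AHR1 probe 3, lower at the second sampling. The AHRR probe, which lay near background, changed by 0.89 in this mean. Beside it, the 110 probes well above background on no array had a median change of 0.75 (quartiles 0.61 and 0.80). The mean change of CYP1A1 passed in 4 of the 8 scalings.

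The site itself gave no call in any member. At the first sampling CYP1A1 probe 1 was lower in the inner fish by 0.38 on the log2 scale (a difference of -0.38, interval -0.97 to 0.20, adjusted p = 0.411), with 3 outer fish above all inner fish and 2 inner fish below all outer fish. At the second it read 0.44 higher inside (interval -0.15 to 1.02, adjusted p = 0.461), with 2 inner fish above all outer fish. As a mean over samplings the site difference was 0.03 (interval -0.39 to 0.44, adjusted p = 0.952). None of 11 member probes passed at the first sampling (14.5% of all tested probes called), at the second (12.8%) or as a mean (7.35%) by limma. At an unadjusted p under 0.05 there were 2, 2 and 0 member probes, out of 127, 96 and 106 of all probes. In order of mean, the CYP1A1 groups ran inner second (1.95), outer second (1.52), outer first (1.31) and inner first (0.92), and no pair of neighbours in this order was told apart by the tests. These comparisons share groups with those between samplings, so they are not independent of them.

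**Figure D4:**
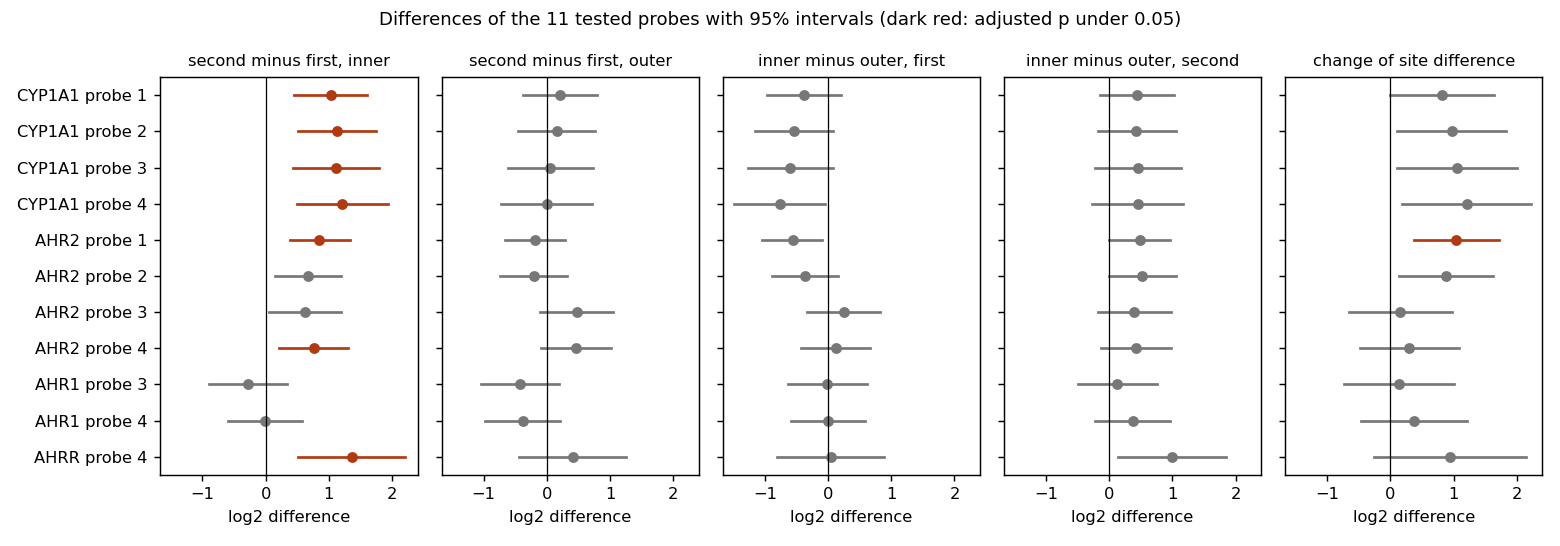
Log2 differences of the 11 tested probes with 95% intervals from limma, in 5 comparisons (second minus first sampling at each site, inner minus outer at each sampling, and the change of the site difference). Dark red marks an adjusted p under 0.05: 7 probes in the first panel and AHR2 probe 1 in the last.

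AHR2, the receptor type that mediates dioxin toxicity in zebrafish, is described by its 2 pairs of probes. Its brightest probe, 3, ranged in the inner harbour from -4.89 over -4.33 to -3.40 at the first sampling and from -4.36 over -3.69 to -2.38 at the second. The outer fish ranged from -4.79 over -4.54 to -4.35 and then from -4.75 over -4.00 to -3.62. The later fish were mostly the higher ones at each site. In the outer harbour 5 of 6 second fish stood above all outer first fish. Only inner second fish 3, at -2.38, stood above all inner first fish. The change was 0.62 in the inner harbour (interval 0.05 to 1.20, adjusted p = 0.0985) and 0.47 in the outer (interval -0.10 to 1.05, adjusted p = 0.274), neither past the threshold. As a mean of both sites it was 0.55 ± 0.20 (SE), 1.46-fold with an interval of 1.10 to 1.94 (limma, adjusted p = 0.0406).

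AHR2 probe 4, from yet another stretch, followed probe 3 closely (r = 0.971 over the 24 arrays, a description). Its mean change was 0.61 (adjusted p = 0.0171), and in the inner harbour alone it was 0.76 (limma, adjusted p = 0.0369). The mean call on probe 3 passed in only 8 of the 24 fits that left out an array and in 5 of 8 scalings. The outer change of probe 3 ran from 0.22 to 0.84 over the scalings and passed in 4 of 8. Within slides the inner change of probe 3 was -0.27, 1.38 and 0.76, and without inner second fish 3 it was 0.37. With that fish left out the mean change was 0.42 (adjusted p = 0.066).

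AHR2 probe 1 stands for the overlapping pair, and this choice was made after its values were seen. In the inner harbour it ranged from -7.37 over -7.03 to -6.25 at the first sampling and from -6.60 over -6.05 to -5.73 at the second. The outer fish ranged from -6.92 over -6.39 to -5.75 and then from -6.99 over -6.59 to -6.18. Inner fish were higher later, with 4 of them above every earlier fish, and outer fish were not. The inner change was 0.85 ± 0.23 (SE), 1.81-fold with an interval of 1.30 to 2.51 (limma, adjusted p = 0.00803), and it passed in all 24 fits with an array left out but in 6 of the 8 scalings. It was lost with spike-in controls (0.78, adjusted p = 0.0635) and with normexp (0.37, adjusted p = 0.213). The outer change was -0.19 (interval -0.66 to 0.29, adjusted p = 0.604).

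The change of the site difference on AHR2 probe 1 was 1.04 ± 0.33 (SE) with an interval of 0.37 to 1.71 (limma, adjusted p = 0.0381). It passed under none of the 7 other scalings, where it lay between 0.27 and 1.22, and in 11 of the 24 fits with an array left out. Its overlapping partner, probe 2, gave 0.88 (adjusted p = 0.0946), while probes 3 and 4 gave 0.15 and 0.30 (adjusted p = 0.819 and 0.643). Across the 24 arrays probes 1 and 2 correlated with r = 0.898, but the correlations between the pairs were 0.347 to 0.555. These estimates thus differed between the pairs, while the inner changes of all 4 probes were alike, at 0.62 to 0.85. The difference between pairs was not tested. Probes 1 and 2 were dim, with signals of 15.4 to 51.4 units on probe 1, against 82.3 to 316 on probe 3.

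**Figure D5:**
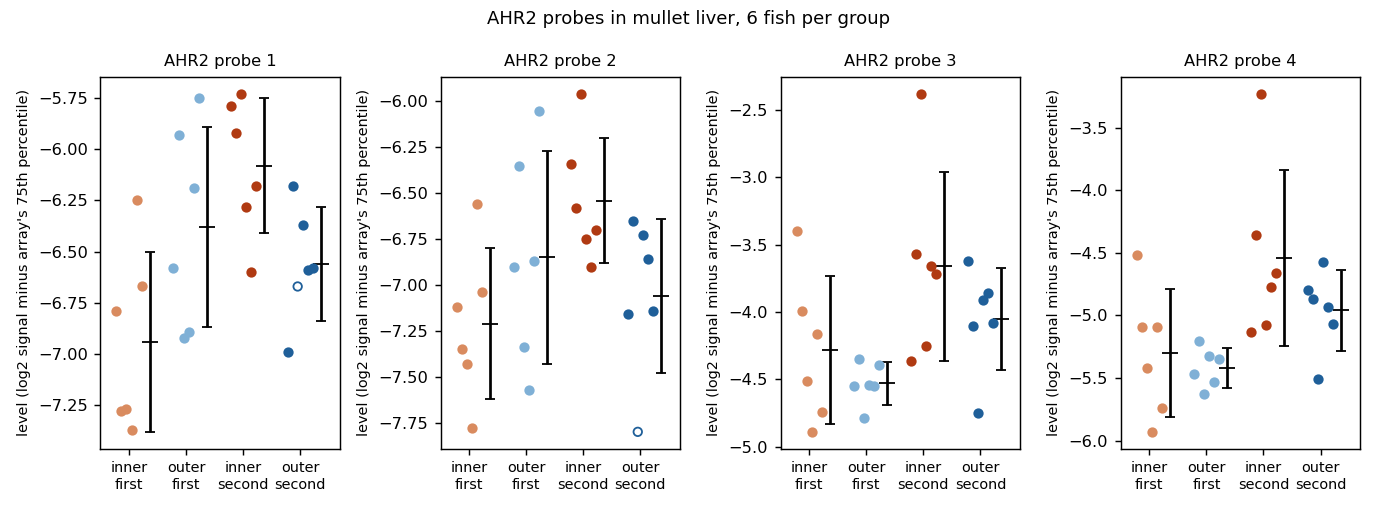
Levels of the 4 AHR2 probes (log2 signal minus the array's 75th percentile) in single fish by site and sampling, 6 fish per group, with bars for mean and SD, open circles where the probe was not well above background, and each panel on its own axis. Probes 1 and 2 have their lowest mean in the inner first fish, whereas probes 3 and 4 have it in the outer first fish and have 1 high inner second fish.

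AHR1 gave no call in any comparison in the main scaling. With spike-in controls, and with the upper percentile over detected probes, probe 3 was called lower at the second sampling as a mean over both sites. The mean level of probe 4 in the inner fish was -7.20 ± 0.48 and then -7.21 ± 0.50, and in the outer fish -7.20 ± 0.63 and then -7.58 ± 0.38 (SD, n = 6 each). The change between samplings was -0.01 in the inner harbour (interval -0.60 to 0.58) and -0.38 in the outer (interval -0.97 to 0.21). A rise of the size seen for CYP1A1 in the inner harbour thus lay outside both intervals of this probe in the main scaling. Probe 3 gave -0.28 and -0.42, and its outer interval, -1.04 to 0.20, took in a fall of that size. Both probes were near the detection limit, with signals on probe 4 of 9.7 to 32.2 units, where the lowest signal well above background on an array lay between 4.11 and 23.6 units.

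AHRR, the repressor that is itself a target of the receptor, was measured only near background. Probe 4 ranged in the inner harbour from -9.67 over -9.28 to -8.57 at the first sampling and from -9.05 over -7.59 to -6.96 at the second. 4 of the 6 later inner fish stood above every earlier one. Its difference was 1.36 ± 0.41 (SE) with an adjusted p of 0.0171 (limma), but only 1 and 2 of the 6 arrays in these groups were well above background. It passed in 5 of the 8 scalings. It was 0.31 (adjusted p = 0.357) with the normexp background correction, which adds an offset of 50, 1.14 (adjusted p = 0.0588) with the median over detected probes, and 1.04 (adjusted p = 0.0687) with their 75th percentile. Beside this stands a general shift of dim probes: the 110 probes that were well above background on no array had a median change of 0.59 in the inner harbour (quartiles 0.52 and 0.69) and 0.90 in the outer. In the outer harbour AHRR changed by 0.41 (interval -0.44 to 1.26, adjusted p = 0.566), and the site difference at the second sampling was 0.99 (adjusted p = 0.145).

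The 14 untested member probes had a median change of 0.72 in the inner harbour and 0.89 in the outer, beside the 0.59 and 0.90 of the undetected probes. No fold is given for Cyp1, CYP1_C or CYP1Bb. Cyp1 and CYP1_C were well above background on no array, and CYP1Bb only in inner second fish 2 and 4. CYP1C genes are found in fish and CYP1B genes in vertebrates at large, and both count as members of the CYP1 family beside CYP1A.

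Of the receptor's partners on the array, HSP90, the chaperone that holds the unbound receptor, rose in the inner harbour by 0.77 ± 0.23 (SE; limma, adjusted p = 0.0144, 4 of 4 probes) and gave -0.12 in the outer (adjusted p = 0.739). Its change of the site difference was 0.89 (adjusted p = 0.0727). The gene spelled HIF1? was listed with the partners by its name alone, and whether it is a partner of the receptor is not known. It had 0.47 in the inner harbour on its brightest probe (limma, adjusted p = 0.0918), with 1 of 4 probes called. AHRnt1, named like ARNT, was well above background on 1 array of inner second fish and was not tested. By brightest probe, 1 of the 2 tested genes of this list rose in the inner harbour, where 17.9% of all tested probes were called higher. None was called in the outer harbour, where 16.6% of all were called. The rise of HSP90 lay between 0.45 and 0.77 over the 8 scalings and passed in 5.

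UGT and GST attach glucuronic acid and glutathione, and some enzymes of these families belong to the receptor's known target battery in vertebrates. The array names give no isoform, so whether the genes probed here are targets is not known. Both were tested and rose in the inner harbour (17.9% of all tested probes called higher). UGT rose by 2.23 (limma, adjusted p = 1.04e-05) and GST by 2.77 (adjusted p = 1.21e-10). Outside, UGT gave 0.25 (adjusted p = 0.611) while GST rose by 1.80 (adjusted p = 3.91e-07). Both were higher inside at the second sampling, UGT by 1.90 (adjusted p = 0.000325) and GST by 0.85 (adjusted p = 0.00749). Their site differences changed by 1.98 and 0.98 between samplings (adjusted p = 0.00586 and 0.0264). The rises in the inner harbour passed in all 8 scalings, as did the higher UGT inside at the second sampling, while the higher GST inside passed in 3 (0.40 to 1.02) and the changed site difference in 6 for UGT and 2 for GST. NAD(P)Hquinone_dehydrogenase was detected on 1 array and was not tested. These enzymes thus had site calls at the second sampling and CYP1A1 did not; whether they differ from CYP1A1 in this was not tested.

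Other phase I genes were listed by name alone, as every further CYP name and epoxide hydrolase, and 7 of these 9 were tested. What each enzyme acts on played no part in the choice, and CYP7 is also among the liver markers. In the inner harbour 3 rose and 1 fell between samplings, where 25.4% of all tested probes were called: CYP7 by 3.16 (limma, adjusted p = 1.11e-08), CYP2_N by 1.52 (adjusted p = 0.0104) and CYP3 by 0.66 (adjusted p = 0.00452) rose, and CYP_scc-24 fell by 2.22 (adjusted p = 0.00087). In the outer harbour, where 16.6% were called, CYP7 rose by 1.20 (adjusted p = 0.00549) and Epoxide_hydrolase1 fell by 1.03 (adjusted p = 0.00623). CYP_2 was higher inside at the first sampling by 0.93 (adjusted p = 0.0461), the only call of the 7 there, beside 14.5% of all tested probes. At the second sampling, where 12.8% were called, CYP_2 by 1.85, CYP7 by 1.15 and Epoxide_hydrolase1 by 0.85 were higher inside (adjusted p = 0.000325, 0.0129 and 0.0296). The site difference changed for 2 of the 7, beside 12.2% of all tested probes, CYP7 by 1.96 and Epoxide_hydrolase1 by 1.14 (adjusted p = 0.00318 and 0.0412). Over the 8 scalings these kept their sign, but not all calls held. The changed site differences passed in 3 for CYP7 and 1 for Epoxide_hydrolase1, and their site calls at the second sampling in 4 and 5. CYP_2 at the first sampling passed in 5, the inner rise of CYP3 in 6, the outer fall of Epoxide_hydrolase1 in 6 and the outer rise of CYP7 in 7. The median difference of the 7 in the inner harbour was 0.66, beside 0.14 over all tested probes. CYP19A2 and CYP9A1 were on no array well above background.

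The genes whose levels ran most like CYP1A1 over the 24 arrays were CYP7 (Pearson r = 0.708), DACD1 (0.615), GST (0.607), CYP3 (0.597) and UGT (0.575), out of 128 other tested genes. The lowest were IGFR1 (-0.58) and Cathepsin_L (-0.555). AHRR ranked 15th with r = 0.342, AHR2, by probe 3 alone, ranked 40th with 0.087 and AHR1 112th with -0.361. These are descriptions over arrays that share groups, slides and scaling.

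Within groups, no relation between CYP1A1 and a receptor or AHRR passed adjustment, and the estimates for both receptors were negative. Deviations from the group means of CYP1A1 probe 1 and AHR2 probe 3 had r = -0.328 (permutation p = 0.0862, adjusted p = 0.463) and Spearman rho = -0.341 (permutation p = 0.0889, adjusted p = 0.428). Without the 2 arrays farthest from the median r was -0.29. For AHR1 probe 4 r was -0.449 (permutation p = 0.0564, adjusted p = 0.416) and rho -0.414 (permutation p = 0.0671, adjusted p = 0.399), with r = -0.383 without 2 arrays. For AHRR probe 4 r was -0.0371 (permutation p = 0.875, adjusted p = 0.901) and rho -0.0409 (permutation p = 0.866, adjusted p = 0.907), with r = 0.0293 without 2 arrays. Each was 1 of 472 probes of other genes set against CYP1A1, with 100000 permutations of arrays within groups, two-sided, and 0 of the 472 passed after Benjamini-Hochberg adjustment. Within single groups of 6, AHR2 probe 3 had r of -0.813, -0.213, -0.336 and -0.105, naming the first sampling before the second and the inner fish before the outer.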

How the data were processed

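The authors' scanner software, Agilent Feature Extraction (version 9.5.3.1 in the file headers), gave an intensity for each spot, deposited after background subtraction and spatial detrending within the array, per the file headers. A table of log2 values deposited by the authors matched every array's own signal best (24 of 24, r of 0.992 or more); its column medians ran from 6.774 to 6.818, and how it was normalized or centred stays unknown. This table was used as an alternative. Each array had 2612 probe spots. Between 40 and 125 spots an array, marked uneven or outlying by the software, were dropped, the log2 signals of a probe's spots were averaged, and each array's 75th percentile was subtracted.

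All 476 tested probes were fitted with limma 3.58.1 (R 4.3.3), 1 coefficient for each of the 4 groups, and p-values were adjusted by Benjamini-Hochberg over the 476, with 0.05 as threshold. Other scalings, background correction, filters, slide or sample number as a block and leaving out each array were tried, and scripts were tested on simulated data. There were 3 slides, each with 2 arrays from every group. The number of arrays limits the precision. A member is represented by its brightest tested probe, and every probe is counted. The 5 genes most like CYP1A1 and the 2 least like it are named. The lists of receptor partners, target battery and other phase I genes were made by gene name. From them, those called and HSP90, UGT and GST are named. AHRnt1 and NAD(P)Hquinone_dehydrogenase were added to the lists by hand after the gene names were seen. So were a-2_macroglobulin and the vitellogenin C among the liver markers, and Mhc2 and the immunoglobulin among the immune markers. Members and lists were chosen with earlier results of these data known. None of the 7 names matched a gene symbol of the RefSeq table (0 of 7), so no genome positions are given.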

Additional observations from a re-analysis of the deposited data

Results flagged for a closer look

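Inner first fish 8 had an AHR1 probe 4 level of -8.12, while the nearest of the other 5 fish stood at -7.23. The gap was 0.641 of the group's whole range, above Dixon's 95% critical value for 6 samples. It was the single case in 20 groups looked at, and chance gives about 1 in 20.

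The site difference of AHR2 probe 1 changed by 1.04 on the log2 scale between the samplings (limma, adjusted p = 0.0381). The change between samplings was 0.85 in the inner and -0.19 in the outer fish. The call was lost under each of the 7 other scalings, and probes 3 and 4 gave 0.15 and 0.30.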

How the results depend on the processing

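The sign of the CYP1A1 rise in the inner harbour (1.03) held in every alternative run, and it passed with each array left out (0.89 to 1.16), with the slide as a block and with all filters. It was lost with quantile normalization (0.82), the 75th percentile over detected probes (0.71), spike-in controls (0.96), the deposited values (0.82) and the median over detected probes (0.81), the last chosen after seeing the data. The mean change over both sites was lost with quantile normalization (0.47), the 75th percentile over detected probes (0.45), spike-in controls (0.46) and the deposited values (0.47). The cause of these losses was not tested. Estimates of CYP1A1 near 0 turned sign: the mean site difference was -0.10 with the median over detected probes and -0.04 to 0.12 with an array left out, and the outer change was -0.04 with spike-in controls.

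The count of member probes called in the inner harbour, 7, was 1 with the 75th percentile over detected probes, 1 with spike-in controls, 4 with normexp and 2 with the median over detected probes, and 6 to 8 with an array left out. The outer count of 0 became 2 with quantile normalization, the array median, the deposited values and the median over detected probes, and 6 with no filter, which fits all 25 probes and so takes in the undetected ones. The count for the mean of both sites, 5, was 1 with the 75th percentile over detected probes, 1 with spike-in controls, 2 with normexp and 16 with no filter, and 3 to 6 with an array left out (3 without outer first fish 3). The mean site count of 0 was 1 with the deposited values, and the second-sampling site count was 0 to 1 with an array left out, being 1 without outer second fish 5, where AHRR gave 1.27. The single call for a changed site difference, AHR2 probe 1, fell to 0 under all 7 other scalings, with no filter, and with the 6 probes detected on all arrays, which leave AHR2 probe 1 out; with an array left out the count was 0 to 1. It held without inner first fish 2, 7 or 8, outer first fish 1, 3 or 4, inner second fish 4, 5 or 7 and outer second fish 3 or 5, and was lost without each of the others (0.92 to 1.18). The mean change of AHR2 probe 3 passed without inner first fish 2, 3 or 7, outer first fish 2 or 8, inner second fish 1 or 4 and outer second fish 4, and was lost without each of the others (0.42 to 0.64). Its inner change passed without inner first fish 2 (0.80), and AHRR's mean change was lost without outer first fish 3 (0.79).

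Signs of uncalled estimates near 0 also turned. AHR1 at the first sampling between sites gave 0.13 with the array median, 0.25 with the 75th percentile over detected probes, 0.03 with normexp, 0.15 with the median over detected probes and -0.10 to 0.24 with an array left out. Its inner change gave 0.09 with quantile normalization, 0.11 with normexp, 0.07 with the deposited values, 0.01 with marked spots kept and -0.20 to 0.09 with an array left out. With normexp its outer and mean changes gave 0.07 and 0.09, and with the median over detected probes its second site difference and changed site difference gave -0.04 and -0.19. AHR2 probe 3 gave -0.01 for the second site difference with the median over detected probes, and for the changed site difference -0.37 with quantile normalization, -0.12 with the array median, -0.14 with the 75th percentile over detected probes, -0.29 with the deposited values, -0.41 with the median over detected probes and -0.10 to 0.33 with an array left out. AHR2 probe 1 gave mean site differences of 0.07 with the 75th percentile over detected probes, 0.04 with spike-in controls, 0.01 with normexp and -0.11 to 0.02 with an array left out, and outer changes of 0.06 with the array median, 0.10 with normexp, 0.01 with the deposited values and 0.15 with the median over detected probes. AHRR at the first sampling between sites ran from -0.15 to 0.24 with an array left out.

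Sample numbers are shared between groups. Of 29 same-number pairs, 7 had deviations correlated over 0.1 (-0.361 to 0.39). Pairs with different numbers were not set beside them, so whether the numbers pair fish was not settled. With the sample number as a replicate block the inner rise of CYP1A1 was 0.96 (limma, adjusted p = 0.0129), the count for the mean of both sites went from 5 to 3, that for a changed site difference from 1 to 0, and the inner change of AHR1 turned to 0.05.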
